A study of Mus musculus with 49 samples.

Results

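Clec4d, Tyrobp and Ccr2 are 3 genes of myeloid blood cells: a surface lectin, the adaptor protein DAP12 and a chemokine receptor. They were chosen by name from the 5880 genes named on a mouse cDNA array, and each was read by 1 spotted cDNA clone among 7739 clones. Their time course in oleic acid mice was known when they were chosen, so that course is given below as a description with no test, and only the comparisons with serum mice and within serum mice are tested.

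The study followed blood cells labelled as peripheral blood mononuclear cells (PBMC) after oleic acid, which causes acute lung injury in animals when injected into the blood. All animals were female wild-type C57Bl/6J mice, 7 weeks old, anesthetized with xylazine and ketamine. Oleic acid (OA) mice received 20 µl of oleic acid into the tail vein, and control mice received physiological serum by the same route. Blood was taken at 1, 1.5, 3, 4, 18 or 24 h, with 4, 6, 4, 4, 4 and 4 OA mice and 2, 1, 2, 2, 2 and 2 serum mice in order of time. No untreated or uninjected mice are among the groups, so every mouse carries the anesthesia and the injection.

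The 37 mice were measured on 49 nylon filters with a radioactive label, and for 12 mice 2 filters were averaged. Median clone signals lay between 83 and 364 per filter, and 41.8% to 57.9% of the clone spots on a filter were well above the empty spots. Values below are log2 normalized signals, 1 per mouse, with the SD over mice. Levels of different genes cannot be compared on this scale, since each depends on its clone. The extraction text names lung where the tissue label gives PBMC. Whether mononuclear cells were separated from whole blood is not stated, and such a separation removes most neutrophils and red cells. Lymphocyte genes were well above the empty spots on all filters for Cd3d and Cd79b, and so were the neutrophil genes S100a8 and S100a9 and the red cell genes Alas2 and Hba-a1, while the monocyte genes Cd14 and Itgam and the T cell gene Cd4 were so on 0 of 49. Along the main axis of variation over all clones, which held 36.2% of the variance, 7 mice stood apart: 4 OA mice (mouse 7 at 3 h, mice 2 and 3 at 4 h, mouse 2 at 18 h) and 3 serum mice (mice 1 and 4 at 4 h, mouse 1 at 18 h). The main differences are given with and without them. The mice are separate animals by their labels, the filters of 1 mouse are technical repeats, and the number of mice limits the precision.

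Clec4d encodes a C-type lectin receptor, also called MCL or dectin-3, of neutrophils and monocytes. It binds glycolipids of mycobacteria and signals through the Fc receptor gamma chain. Tyrobp encodes DAP12, a small transmembrane adaptor with 1 immunoreceptor tyrosine-based activation motif (ITAM), through which receptors with no signalling tail of their own engage the kinase Syk. Ccr2 encodes the receptor for the chemokine CCL2, known for the release of inflammatory monocytes from the bone marrow and their entry into injured tissue.

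The lectin receptor Clec4d had its highest level in OA mice at 1.5 h and its lowest at 24 h. At 1 h the 4 OA mice measured 8.58, 8.63, 9.06 and 9.80. At 1.5 h the 6 OA mice ranged from 8.33 to 11.69 with a median of 10.17. Mice 5, 6 and 8 of that group, at 11.69, 11.01 and 11.15, lay above every other mouse of the study. At 3 h the OA mice measured 8.69, 8.75, 9.25 and 9.48, and at 4 h 8.15, 8.20, 8.42 and 8.92. At 18 h they measured 7.52, 7.74, 8.76 and 8.93, and at 24 h 6.82, 7.21, 7.33 and 8.20. The spread between OA mice was widest at 1.5 h, where the mean was 10.14 ± 1.32 (SD, n = 6), and the mean at 24 h was 7.39 ± 0.58 (SD, n = 4).

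In order, the Clec4d means of OA mice ran from 1.5 h through 3, 1, 4 and 18 h to 24 h. The steps from 1 h to 4 h (0.60) and from 18 h to 24 h (0.85) exceeded the larger SD of the pair of groups, and the other neighbours in that order did not differ beyond it. All neighbouring groups overlapped. In serum mice Clec4d measured 8.54 and 9.67 at 1 h, 9.04 in the only mouse at 1.5 h, and 9.41 and 9.68 at 3 h. It then measured 7.68 and 8.30 at 4 h, 7.54 and 9.02 at 18 h, and 7.11 and 9.79 at 24 h. The 2 serum mice at 24 h were the highest and the lowest of all 11 serum mice, 2.68 apart.

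The DAP12 gene Tyrobp varied less over the hours. At 1 h 3 of the 4 OA mice lay close together at 7.35, 7.38 and 7.54, and mouse 5 was at 8.86. At 1.5 h the 6 OA mice ranged from 7.85 to 10.18, with a mean of 8.72 ± 0.89 (SD, n = 6), and mouse 5 of that group was the highest of them, as for Clec4d. The OA mice measured 7.82, 8.21, 8.46 and 8.87 at 3 h and 7.11, 7.61, 7.75 and 7.89 at 4 h. At 18 h they were spread from 6.95 through 7.73 and 8.18 to 8.96, and at 24 h they were close together at 7.11, 7.22, 7.22 and 7.74. No neighbouring pair of OA means in order of level (1.5, 3, 18, 1, 4 and 24 h) differed beyond the larger SD.

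In serum mice Tyrobp was at 8.03 and 8.16 at 1 h, at 7.77 in the mouse at 1.5 h, and at 8.53 and 9.01 at 3 h. At 4 h it was at 8.04 and 9.52, at 18 h at 7.54 and 9.36, and at 24 h at 7.47 and 10.12. From 4 h on, each pair of serum mice was split widely, and the gap at 24 h was 2.65. All 4 OA mice at 4 h lay below both serum mice, and the 6 OA mice at 1.5 h lay above the single serum mouse, while the groups overlapped at the other times. Against 1 or 2 serum mice such a separation says little, and the share of all clones that separate in this way was not counted. Tyrobp was well above the empty spots on 3 of the 5 filters of the OA mice at 4 h.

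The chemokine receptor gene Ccr2 had its highest mean at 18 h in OA and in serum mice. In serum mice that mean was only 0.07 above the 4 h mean, with a larger SD of 1.02. The highest single serum mouse, at 10.34, was at 4 h. At 1 h the OA mice measured 7.14, 7.73, 7.94 and 8.61, and at 1.5 h they ranged from 6.91 to 8.64 with a mean of 7.76 ± 0.64 (SD, n = 6). They measured 7.90, 8.30, 8.37 and 8.79 at 3 h and 8.20, 8.26, 9.44 and 9.84 at 4 h. At 18 h they reached 8.39, 9.10, 9.11 and 10.65, a mean of 9.32 ± 0.95 (SD, n = 4), and at 24 h they were at 7.69, 7.97, 8.13 and 8.18. The 24 h group was the tightest, 7.99 ± 0.22 (SD, n = 4), and lay close to the early hours again. No neighbouring pair of OA means (18, 4, 3, 24, 1 and 1.5 h in order) differed beyond the larger SD.

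Serum mice followed a similar order for Ccr2. They measured 8.01 and 8.97 at 1 h, 8.10 at 1.5 h, 7.99 and 8.38 at 3 h, and 8.90 and 10.34 at 4 h. At 18 h they were at 9.34 and 10.04, and at 24 h at 7.72 and 9.40. The 5 highest Ccr2 values among the 37 mice all belonged to the 7 mice set apart on that axis, with which Ccr2 correlated at r = 0.705 over mice, against 0.244 for Tyrobp and -0.198 for Clec4d. Without those mice the OA means of Ccr2 were 8.23 at 4 h (n = 2) and 8.87 at 18 h (n = 3), and the remaining serum mouse at 18 h was at 9.34.

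**Figure D1:**
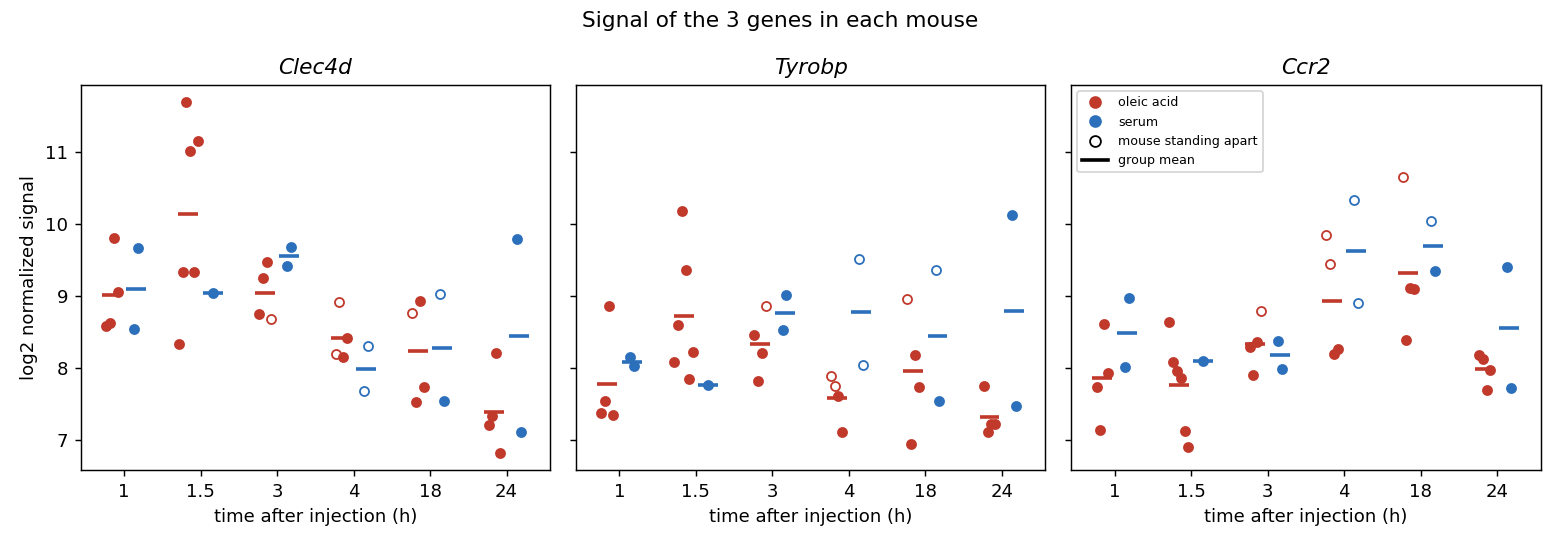
Log2 normalized signal (vertical axis) of Clec4d, Tyrobp and Ccr2 in each of the 37 mice by time after injection (horizontal axis, hours, equally spaced), with OA mice in red, serum mice in blue, group means as bars and the 7 mice that stood apart as open circles. Clec4d is highest in 3 OA mice at 1.5 h (11.01 to 11.69) and lowest in OA mice at 24 h, and the 5 highest Ccr2 circles are open.

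The first question was whether the genes differed between OA and serum mice at matched times. No difference passed the test for any of the 3 genes. Averaged over the 6 times, Clec4d differed by -0.03 on the log2 scale (OA minus serum, SE 0.30, 95% interval -0.64 to 0.59). Tyrobp was at 7.95 in OA and 8.44 in serum mice, a difference of -0.49 (SE 0.27, interval -1.05 to 0.07). Ccr2 was at 8.37 and 8.77, a difference of -0.41 (SE 0.24, interval -0.90 to 0.09). The adjusted p from limma with the Benjamini-Hochberg method over all clones was 1 for each of them, and 0 of the 3 genes were called against 0% of the 7739 clones tested. At an unadjusted p under 0.05, 266 clones passed. Without the 7 mice that stood apart, over the 5 times that then have serum mice, the differences were 0.02 for Clec4d, -0.27 for Tyrobp and -0.40 for Ccr2. The intervals leave room for a Tyrobp level 1 log2 unit lower in OA mice, and for a Clec4d difference of about 0.6 either way.

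At single times no gene passed the test either, where 0% of all clones were called at 1, 3 and 18 h, 0.0129% (1 clone) at 1.5 h and at 24 h, and 0.0517% (4 clones) at 4 h. The count of clones at 4 h rests on serum mouse 4: without it, the calls summed over the times went from 6 to 766, with the 3 genes still not among them (lowest adjusted p for Tyrobp at 4 h 0.128 by limma). The Clec4d difference was largest at 1.5 h, where OA mice were 1.10 higher (SE 0.88) than the single serum mouse, and at 24 h, where they were 1.06 lower (difference -1.06, SE 0.71, adjusted p = 0.797 by limma). The Tyrobp difference was largest at 24 h: OA mice were at 7.32 and serum mice at 8.79, a difference of -1.47 (SE 0.64, interval -2.78 to -0.16, adjusted p = 0.679 by limma). Tyrobp was well above the empty spots on 2 of 6 filters of these OA mice and 1 of 2 of the serum mice, so the difference is partly between levels near background. It also rests on 1 mouse. It was -0.14 without serum mouse 1 and -2.80 without serum mouse 4. At 4 h Tyrobp differed by -1.19 (SE 0.64, adjusted p = 0.435 by limma), with both serum mice among those that stood apart and no serum mouse left without them. It was -0.45 without serum mouse 1 and -1.93 without serum mouse 4. Ccr2 differences at single times lay between -0.68 at 4 h and 0.15 at 3 h, each within its interval around 0.

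The 2 serum mice at 24 h bear on the values at that time and on the averages. Mouse 1 was above mouse 4 by 2.68 for Clec4d, 2.65 for Tyrobp and 1.68 for Ccr2, and over all 37 mice they ranked 5 and 36, 2 and 30, and 6 and 33. Mean levels of the 10 neutrophil marker genes, taken as deviations from each gene's own mean, were 0.84 in mouse 1 and -1.02 in mouse 4, and those of the 12 monocyte and macrophage markers were 0.32 and -0.02. The part of cell makeup in this split was not tested.

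**Figure D2:**
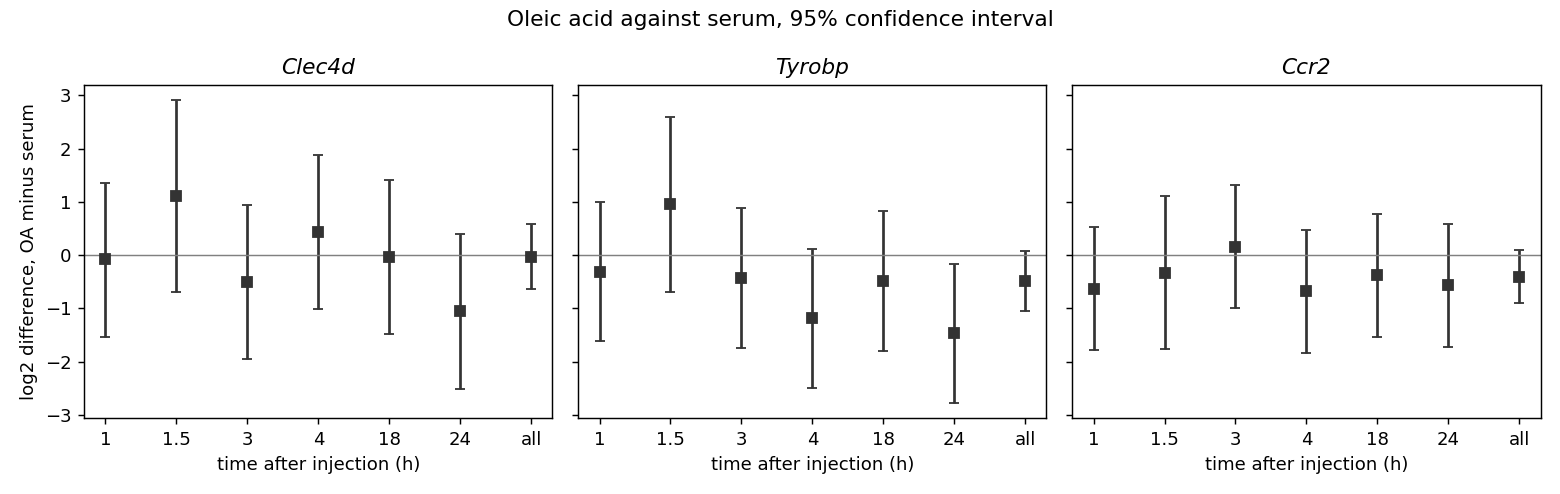
Log2 difference of OA minus serum mice (vertical axis, square) with its 95% confidence interval (bar) for Clec4d, Tyrobp and Ccr2 at each time after injection (horizontal axis, hours) and averaged over the 6 times (all). Every interval includes 0 except that of Tyrobp at 24 h, -2.78 to -0.16, whose adjusted p was 0.679 by limma.

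Whether the OA effect differed among the times was asked with 1 F test for each gene. The F values were 0.918 for Clec4d, 1.35 for Tyrobp and 0.295 for Ccr2, and the adjusted p was 1 for each by limma. Of all clones 0% were called by this test, and 252 had an unadjusted p under 0.05.

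The second question was how the genes moved from the early hours (1 and 1.5 h) to the late hours (18 and 24 h), each time weighted equally. In OA mice, Clec4d was lower by 1.76 on the log2 scale at the late hours (difference -1.76, SE 0.39), a 3.4-fold lower signal. All 8 late OA mice were below the early mean, and 6 of them were below the lowest of the 10 early mice. Clec4d was well above the empty spots on 13 of 13 filters of the early OA mice and on 6 of 11 of the late ones, so the late levels of several mice lie near background and the fold is then understated. The difference reached -2.19 (SE 0.49) at 24 h, against -1.34 (SE 0.49) at 18 h and -0.85 (SE 0.39) at the middle hours, 3 and 4 h.

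Tyrobp in OA mice was 0.61 lower late than early (difference -0.61, SE 0.35), with 7 of 8 late mice below the early mean and 4 below all early mice. It was well above the empty spots on 9 of 13 filters of the early OA mice and 6 of 11 of the late ones, so part of this ranking is of values near background. Ccr2 moved the other way in OA mice. It was 0.84 higher late than early (SE 0.31), 1.51 higher at 18 h (SE 0.39) and 0.18 higher at 24 h (SE 0.39), and 7 of 8 late mice exceeded the early mean. Without the mice at 1.5 h the late difference was -1.20 for Clec4d and -0.14 for Tyrobp, and without those at 18 h it was 0.18 for Ccr2. At the middle hours Ccr2 was already 0.83 higher (SE 0.31), and all 8 middle mice exceeded the early mean. Without the 7 mice that stood apart, the Ccr2 differences were 0.62 (SE 0.26) late, 1.06 (SE 0.34) at 18 h and 0.40 (SE 0.29) at the middle hours, while that of Clec4d late against early was -1.85 (SE 0.43) and that of Tyrobp -0.78 (SE 0.35). Among all clones 8.23% passed the test of late against early in OA mice (4.35% higher and 3.88% lower) and 9.21% that of middle against early, and nothing is read from the members against these shares.

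In serum mice the same steps were tested. Clec4d was 0.70 lower late than early (difference -0.70, SE 0.65, adjusted p = 0.774 by limma), Tyrobp 0.69 higher (SE 0.59, adjusted p = 0.75) and Ccr2 0.83 higher (SE 0.52, adjusted p = 0.661). None of the 3 passed, against 0.0258% of all clones (2 clones), with 3 early and 4 late serum mice and 674 clones at an unadjusted p under 0.05. These values move with the 2 serum mice at 24 h. Leaving out one or the other took Clec4d from -1.37 to -0.03, Tyrobp from 0.03 to 1.36 and Ccr2 from 0.41 to 1.25. Without the 7 mice that stood apart the values were -1.08, 0.24 and 0.66. At 18 h alone Ccr2 was 1.40 above the early serum mice (SE 0.61, interval 0.15 to 2.65, adjusted p = 0.65 by limma), a difference close in size to the 1.51 of OA mice. From early to middle hours the serum differences were -0.30 (SE 0.65) for Clec4d, 0.85 (SE 0.59) for Tyrobp and 0.61 (SE 0.52) for Ccr2, with adjusted p of 0.833, 0.453 and 0.546 by limma, where 0.0388% of clones were called. Both serum mice at 4 h, and 1 of the 2 at 18 h, were among the 7 that stood apart.

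The late against early difference of OA mice minus that of serum mice was -1.06 (SE 0.75) for Clec4d, -1.30 (SE 0.68) for Tyrobp and 0.01 (SE 0.60) for Ccr2. Since it holds the OA course by which the genes were chosen, it is a description with no test. Leaving out 1 or the other serum mouse at 24 h took it from -1.73 to -0.39 for Clec4d, from -1.97 to -0.64 for Tyrobp and from -0.41 to 0.43 for Ccr2, and without the 7 mice that stood apart it was -0.77, -1.01 and -0.04. The similar Ccr2 estimates in OA and serum mice do not show that the courses are the same.

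**Figure D3:**
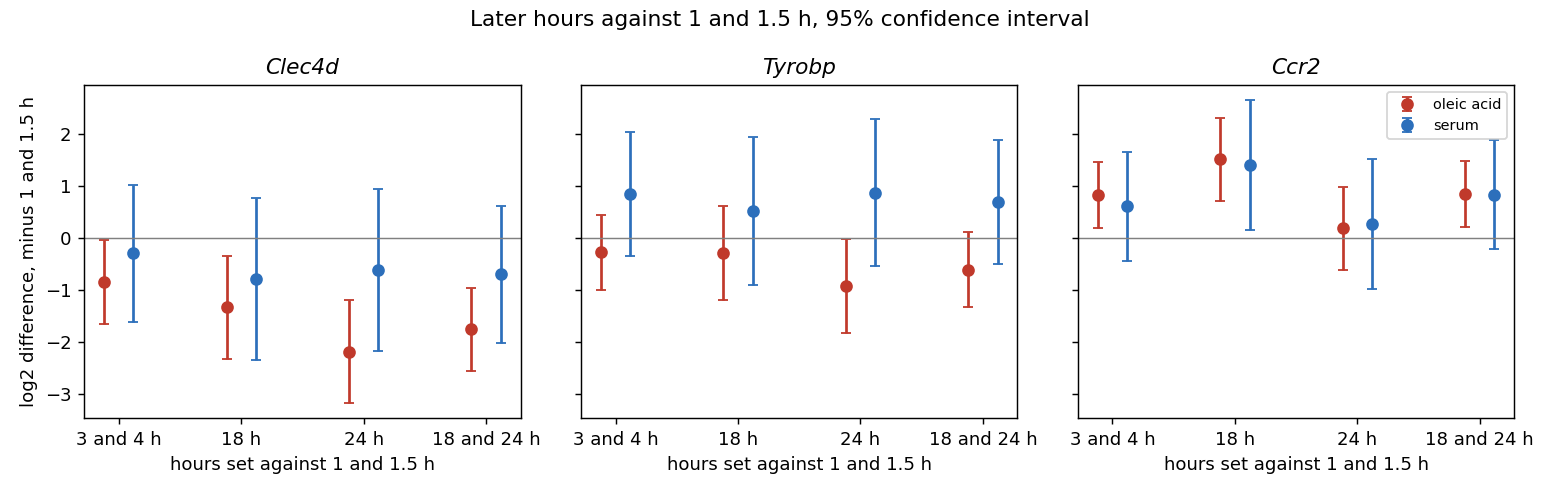
Log2 difference (vertical axis, circle) with its 95% confidence interval (bar) of the middle hours (3 and 4 h), 18 h, 24 h and the late hours (18 and 24 h) against the early hours (1 and 1.5 h), in OA mice (red) and serum mice (blue). The Clec4d circles of OA mice fall to -2.19 at 24 h, the Tyrobp circles of OA and serum mice lie on opposite sides of 0, and the Ccr2 circles peak at 18 h in both (1.51 and 1.40).

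In bulk blood samples, fewer cells of a type and less RNA per cell cannot be told apart. The neutrophil marker list moved with Clec4d and Tyrobp. Over the 37 mice, its mean level correlated with Clec4d at r = 0.794, with Tyrobp at 0.783 and with Ccr2 at 0.214, and the monocyte and macrophage list at 0.390, 0.259 and -0.234. Of the 10 measured neutrophil markers, 3 (Ltf, Il1r2 and Slpi) fell and 0 rose between the early and the late OA mice, with a median difference of -0.73 against -0.01 over all clones, of which 3.88% fell and 4.35% rose. Ltf, which encodes the granule protein lactoferrin, also fell in serum mice, by 1.54 (SE 0.28, adjusted p = 0.0451 by limma). This call was lost with 2 other settings, median scaling and the empty spots subtracted, where 0 clones were called in serum mice. The mean level of the neutrophil markers had a median of 0.36 in early OA mice (-0.44 to 1.21), -0.15 in middle ones (-0.57 to 0.23) and -0.71 in late ones (-0.94 to 0.60). It went from 0.37 to 0.06 in serum mice. Of the 12 monocyte and macrophage markers, 1 (Ctsb) rose and 0 fell, beside 4.35% and 3.88% of all clones, and their level had medians of 0.10 and -0.01 in early and late OA mice. Of these 12 markers, Cd14 and Itgam were well above the empty spots on 0 filters, Adgre1 on 13 and Cd68 on 14. The other markers of this list were so on 33 (Cx3cr1) to 49 filters (Ly6c1, Ctsb and Psap). Of the 12 erythroid markers, 5 (Alas2, Car1, Mpp1, Rhd and Trim10) rose and 0 fell from early to late hours in OA mice, and Mpp1 also rose in serum mice, by 2.44 (SE 0.46, adjusted p = 0.0451 by limma). Their level went from a median of -0.40 to 0.29 in OA mice and from -0.41 to 0.36 in serum mice, and over the 37 mice it correlated at r = -0.556 with Clec4d, -0.308 with Tyrobp and -0.164 with Ccr2. The part of these cells in the courses of Clec4d, Tyrobp and Ccr2 was not tested.

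Among themselves, Clec4d and Tyrobp varied together. Over the 37 mice Clec4d correlated with Tyrobp at r = 0.621, and at 0.646 after the mean of each group was removed. Ccr2 correlated with Tyrobp at 0.362, and at 0.672 within groups, and with Clec4d at -0.204, and at 0.204 within groups. These are descriptions over mice that share filters and amplification. The genes whose pattern over the mice was most like that of Clec4d, among 3238 genes, were Il1b (r = 0.894), which encodes the cytokine interleukin-1 beta, Mtcp1 (0.889), Lilrb4a (0.863), an inhibitory receptor of myeloid cells, Acod1 (0.858), the enzyme that makes itaconate, and Fosl2 (0.858), an AP-1 transcription factor. For Tyrobp they were Gcnt2 (0.846), Smchd1 (0.840), Fgl2 (0.839), Lst1 (0.838) and Rgs2 (0.837). For Ccr2 they were Ctsc (0.915), which encodes cathepsin C, Plac8 (0.885), Dars (0.843), Cybb (0.807), the catalytic subunit of the phagocyte NADPH oxidase, and Dbi (0.805). The 90th percentile of r over these genes was 0.420 for Clec4d, 0.365 for Tyrobp and 0.556 for Ccr2, so a high r was most common for Ccr2.

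Each gene rests on 1 spot, and the spots differ in quality. Clec4d was well above the empty spots on 41 of 49 filters, Tyrobp on 36 and Ccr2 on 46. None was at the ceiling of the scanner on any filter. The deposited quality score, 0 or 1, was 1 on 43 filters for Clec4d, 39 for Tyrobp and 18 for Ccr2. A correction for light from a neighbouring spot was recorded for Ccr2 on 14 of 49 filters and for the other 2 genes on none.

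The spot next to Ccr2 carries Tlr9 and was brighter than Ccr2 on 49 of 49 filters, with median intensities of 2445 and 331. Over all 37 mice, those that stood apart included, the 2 spots correlated at r = 0.710. An empty spot on another side of Ccr2 had a median intensity of 93 and correlated with it at 0.779, and the Dpp8 spot, at 155, correlated at 0.702. Clec4d, at a median of 425, was brighter than its neighbour Coq4, at 80, on all 49 filters, and the pair correlated at 0.805. Tyrobp, at 261, had neighbours with medians from 55 to 111 and r from 0.300 to 0.558. The part of neighbouring spots in the Ccr2 values was not tested. In the 12 mice with 2 filters, the median absolute difference between filters was 0.26 for Clec4d, 0.20 for Tyrobp and 0.25 for Ccr2, against an SD between mice of a group of 0.86, 0.78 and 0.69. The widest gaps between filters of 1 mouse were 0.83, 1.51 and 1.09, and the Tyrobp gap belonged to serum mouse 4 at 4 h (8.80 and 7.29).

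**Figure D4:**
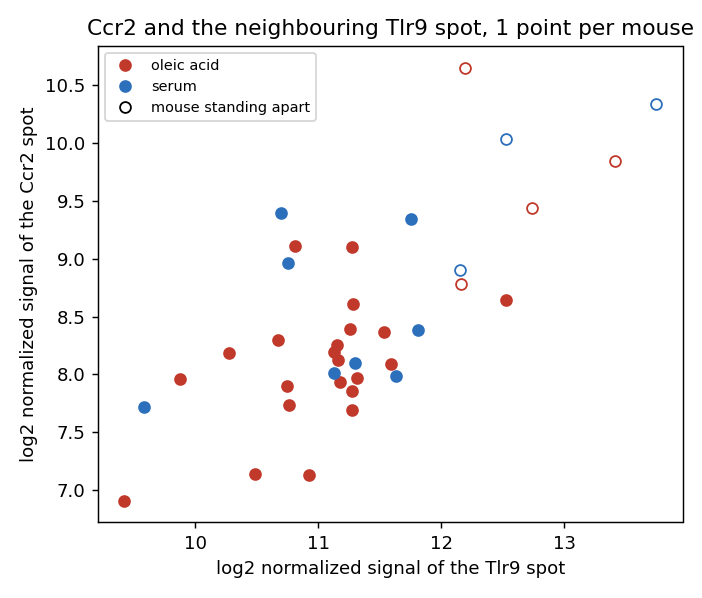
Log2 normalized signal of the Ccr2 spot (vertical axis) against that of the neighbouring Tlr9 spot (horizontal axis), 1 point for each of the 37 mice, with OA mice in red, serum mice in blue and the 7 mice that stood apart as open circles. The points run upward together (r = 0.710 over all 37 mice), and the open circles lie at the upper right. The correlation was not taken without those 7 mice.

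The genes that work with these 3 were counted from lists chosen with earlier results of these data known, without the 3 genes themselves. In OA against serum mice averaged over the times, 0 genes of these 7 lists were called, and 0 in late against early serum mice, where 0% and 0.0258% of all clones were. Calls were found in OA mice between the hours, a comparison added for these lists after values were seen. Of the C-type lectin receptors, 2 of 13 others were measured. Clec4e (Mincle), which forms a receptor complex with the Clec4d protein, differed by -0.12 between OA and serum mice (SE 0.21) and by -0.60 between late and early OA mice (SE 0.28, adjusted p = 0.163 by limma), and Mrc1, the mannose receptor, by -0.03 and 0.02. Cd300c2 was the only measured gene of the 15 receptors listed as possible partners of DAP12, at 0.00 (SE 0.12) between OA and serum mice and 0.02 (SE 0.15) between late and early OA mice.

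Of the 6 other ITAM adaptors, 0 were called. In OA mice 9.21% of all clones were called from early to middle hours and 8.23% from early to late hours, so a count of 0 among few genes says little. Fcer1g, the Fc receptor gamma chain that pairs with the Clec4d protein, was the nearest to Tyrobp in role and differed by -0.30 between OA and serum mice (SE 0.20, adjusted p = 1 by limma), and by -0.21 between late and early OA mice (SE 0.26). The T cell receptor chain Cd3d differed by 0.12 between OA and serum mice (SE 0.14), and Cd3g and the B cell receptor chain Cd79b by 0.04 and -0.05.

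Of 17 measured genes that signal below ITAM adaptors, 4 fell from early to middle hours in OA mice and 0 rose, where 6.19% of clones fell and 3.02% rose. Syk, the kinase that binds phosphorylated ITAMs, fell by 0.97 (SE 0.21, adjusted p = 0.00797 by limma), and Plcg2, a phospholipase below it, fell by 0.39 (SE 0.10, adjusted p = 0.0141 by limma). Both stayed called without any 1 mouse and without the 7 mice that stood apart, where Syk fell by 0.77 and Plcg2 by 0.40. Btk, a kinase of B cells and myeloid cells, fell by 0.67 (adjusted p = 0.0357 by limma) but was well above the empty spots on only 8 of 49 filters. Lck, a kinase of T cells, fell by 0.59 (adjusted p = 0.037 by limma). Both of these calls were lost without the 7 mice (adjusted p = 0.102 and 0.12 by limma), and each was lost when any 1 of 7 mice was left out. The Lck call was also lost without the spots that carry an overshining score (adjusted p = 0.116 by limma). Over the same hours the serum mice differed in the same direction, by -0.75 (SE 0.35) for Syk, -0.30 (SE 0.16) for Plcg2, -1.07 (SE 0.33) for Btk and -0.66 (SE 0.29) for Lck, with adjusted p of 0.294, 0.343, 0.146 and 0.279 by limma. No clone, these included, was called by the F test of whether the OA effect differed among the times. Of the 9 B cell markers, 2 (Cd37 and Cd72) fell and 0 rose over the same hours in OA mice. Their level there had medians of 0.17 early, -0.37 in the middle hours and 0.14 late. Of the 10 neutrophil markers, 3 (Il1r2, Ltf and Slpi) fell and 0 rose over those hours in OA mice. Of the 12 monocyte and macrophage markers, 2 (Irf8 and Psap) fell and 0 rose. Among 13 T cell markers 1 (Lck itself) fell, and among 7 NK cell markers 1 (Ncr1) rose. The part of any of these cells in the courses of the 4 signalling genes was not tested. From early to late hours in OA mice 0 of the 17 genes were called, beside 8.23% of all clones, and Syk differed by -0.61 (SE 0.21, adjusted p = 0.0707 by limma). Between OA and serum mice Malt1 differed by -0.19 (SE 0.14), Vav1 by 0.15 (SE 0.17), Lcp2 by -0.08 (SE 0.09) and Syk by -0.12 (SE 0.16), with an adjusted p of 1 for each by limma.

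Of the 9 Fc and Ig-like receptors of myeloid cells, 0 were called in any of these comparisons. Of all clones, 9.21% were called from early to middle and 8.23% from early to late hours in OA mice. Sirpa, an inhibitory receptor that binds CD47, differed by -0.21 between OA and serum mice (SE 0.14), Fcgr2b by -0.18 (SE 0.16) and Fcgr3 by -0.24 (SE 0.23). Of these 9 genes, 1 had a positive difference between OA and serum mice, and their median was -0.18 against 0 over all clones. Lilrb4a, which followed Clec4d over the mice, differed by -0.94 between late and early OA mice (SE 0.32, adjusted p = 0.068 by limma).

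Of 8 other chemokine receptors, 1 fell and 0 rose from early to middle hours in OA mice, beside 6.19% and 3.02% of all clones. From early to late hours 0 were called, beside 8.23% of all clones. Ccr8 fell by 0.55 from early to middle hours (SE 0.17, adjusted p = 0.0438 by limma). Serum mice differed by -0.85 over the same hours (SE 0.29, adjusted p = 0.185 by limma). The Ccr8 call was lost when any 1 of 13 mice was left out and with the first filter of each mouse alone (adjusted p = 0.055 by limma). Without the 7 mice that stood apart it did not hold either, at -0.48 (adjusted p = 0.185 by limma). Between OA and serum mice Ccr8 differed by -0.23 (SE 0.13), Ccr6 by -0.19 (SE 0.17), Cxcr5 by -0.16 (SE 0.24) and Ccr9 by -0.07 (SE 0.14), none of them called. Of the 7 ligands and partners of CCR2, 1 fell from early to late and 1 from early to middle hours in OA mice, beside 3.88% and 6.19% of all clones, and 0 rose. Grk2, a kinase that desensitizes chemokine receptors, fell by 1.19 from early to late hours in OA mice (SE 0.22, adjusted p = 0.00296 by limma). It stayed called without any 1 mouse and without the 7 that stood apart. The Grk2 call did not hold without the mice at 1.5 h (adjusted p = 0.126 by limma) or at 24 h (adjusted p = 0.256 by limma). In serum mice Grk2 differed by -1.13 between the same hours (SE 0.36, adjusted p = 0.49 by limma). Ccl7, a ligand of CCR2, fell by 0.41 from early to middle hours (SE 0.11, adjusted p = 0.0279 by limma), but was well above the empty spots on 5 of 49 filters and was not called without the 7 mice (adjusted p = 0.151 by limma). The serum mice differed by -0.49 there (SE 0.19, adjusted p = 0.228 by limma). Ccl2, the main ligand, was well above the empty spots on 0 of 49 filters. Between OA and serum mice Grk2 differed by -0.24 (SE 0.17), Nup85 by 0.12 (SE 0.10), Gnai2 by 0.12 (SE 0.15) and the ligand Ccl12 by -0.06 (SE 0.09).

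**Figure D5:**
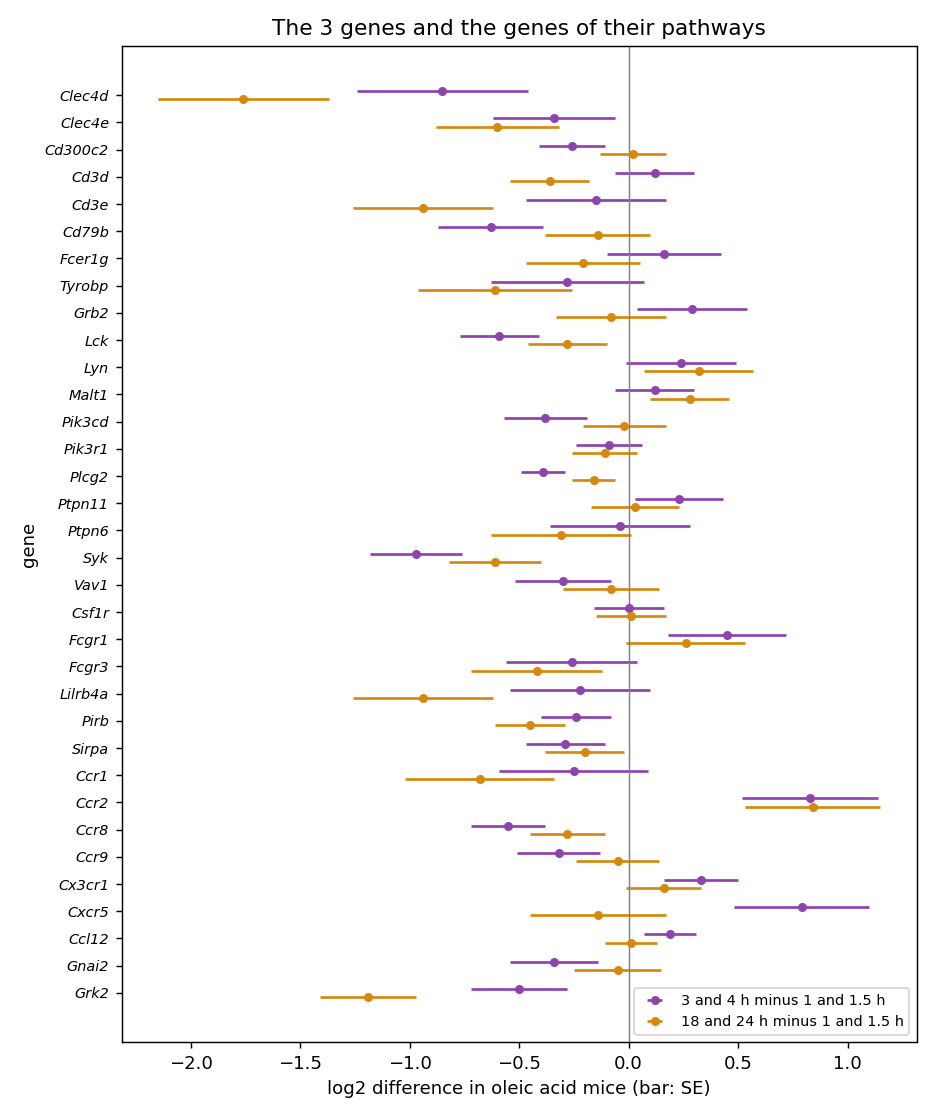
Log2 difference in OA mice (horizontal axis, circle, bar for the SE) of the middle hours (purple) and the late hours (orange) against the early hours for Clec4d, Tyrobp, Ccr2 and the measured genes of their lists that were well above the empty spots on at least 50% of the filters, 34 genes in all (vertical axis). Clec4d has the lowest late value (-1.76), followed by Grk2 (-1.19), Syk has the lowest middle value (-0.97), and Ccr2 lies above 0 at both stages.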

How the data were processed

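Per the labels' protocols, total RNA came from a kit for mouse blood, was amplified linearly, and was hybridized with a 33P label to nylon filters of spotted cDNA. The authors deposited 1 intensity per spot on a linear scale, from 15 to a ceiling of 21815, without a background column. They also deposited 2 scores per spot, a quality score and an overshining score for light from neighbouring spots. The log2 table that the authors quantile normalized with no adjustment to serum, per the file headers, served as an alternative. How the images were quantified is not given in the sources used here.

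Here, intensities of 7771 clone spots were log2 transformed with no background correction and quantile normalized between the 49 filters. Spots of a clone and filters of a mouse were averaged, and limma 3.58.1 in R 4.3.3 was fitted to 12 group means over 37 mice and 7739 clones, with Benjamini-Hochberg adjustment and a threshold of 0.05. Serum groups of 1 or 2 mice share the spread of the other groups. Gene names from the files were updated through the RefSeq gene table, and 7469 clones received a symbol. A clone was well above the empty spots where its intensity exceeded the median of the 1478 empty spots of that filter by 2.6 robust SDs, a rule set with the data seen.

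The members and the gene lists were chosen with earlier results of these data known. Named pathway genes are up to 4 per list with the smallest p in OA against serum mice and those called, and the 5 genes most like each member were taken by Pearson r. Syk, Lilrb4a and the markers and neighbours named beyond that rule were chosen after their values were seen. No label names batches of mice or filters. Alternatives were another scaling, the authors' log2 table, subtraction of the empty spots, a filter on dim clones, the quality score, the first filter of each mouse, the mouse number as a block, and each mouse or time left out. Leaving out the 7 mice that stood apart, or spots with an overshining score above 0, was chosen after seeing the data. A serum mouse at 1.5 h and an OA mouse at 3 h that the series text counts in addition were not analysed here. Some genes of the lists are not reported here and were left out of the list counts.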

Additional observations from a re-analysis of the deposited data

Results flagged for a closer look

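Tyrobp in the OA mice at 1 h was the only one of the 18 groups tested, 3 genes in 6 OA groups, with a mouse far from the others. The gap of mouse 5, at 8.86, to the nearest of the other 3 mice (7.35, 7.38 and 7.54) was 0.879 of the whole range of the group. Tyrobp was well above the empty spots on 1 of the 5 filters of this group, that of mouse 5, so the closeness of the other 3 mice is one of values near background. Chance flags about 1 in 20 such groups. The same mouse was the highest of its group for Clec4d (9.80) and Ccr2 (8.61). Without it, the Tyrobp difference between OA and serum mice at 1 h was -0.67 in place of -0.31, and that between late and early OA mice was -0.43 in place of -0.61.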

How the results depend on the processing

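No test of Clec4d, Tyrobp or Ccr2 passed the threshold under any alternative run, and their late against early differences in OA mice kept their sign, from -2.40 to -1.20 for Clec4d, -1.08 to -0.14 for Tyrobp and 0.18 to 1.51 for Ccr2. The authors' table left all 59 results on their side. Clec4d averaged over the times, -0.03, became 0.02 with median scaling and 0.02 without the 7 mice that stood apart. Without those mice the differences at 18 h were 0.53 for Clec4d and 0.08 for Tyrobp, and with the empty spots subtracted Clec4d was at 0.02 there. With the mouse number as a block (replicate block), Clec4d was 0.44 averaged, 0.22 at 1 h, 0.52 at 3 h and 0.26 at 18 h, Tyrobp 0.56 at 3 h and Ccr2 0.44 at 1.5 h. Serum mice carry only the numbers 1, 4 and 5 and most OA mice carry others, so this block largely coincides with treatment. The SE of the averaged Clec4d difference was 0.68 with it and 0.30 without it, so these changes of sign say little. Deviations of same-numbered mice correlated at a median r of -0.000599 (-0.561 to 0.633) and others at 0.00585 (-0.826 to 0.826). Medians over such wide ranges cannot settle whether some numbers pair mice. The block also ended the calls of Lck (adjusted p = 0.0682 by limma) and Ccr8 (0.0728). Plcg2 late against early was 0.03 without 24 h. Over the mice left out in turn, Clec4d ranged from -0.25 to 0.20 averaged, -0.65 to 0.48 at 1 h, -0.78 to 0.70 at 18 h and -2.40 to 0.28 at 24 h, Tyrobp from -1.41 to 0.42 at 18 h, and Ccr2 from -0.05 to 0.35 at 3 h, -1.40 to 0.03 at 4 h and -1.41 to 0.27 at 24 h.

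Counts of clones moved more. Late against early in OA mice (637) gave 144 with the quality score, 1 without 1.5 h, 1298 without 18 h, 8 without 24 h, 1363 without the 7 mice, and 256 (without OA mouse 5 at 1 h) to 912 over single mice. Middle against early (713) gave 146 with the quality score, 414 with the block, 226 without the 7 mice, and 220 (without OA mouse 7 at 3 h) to 887. Late against early in serum mice (2) gave 0 with median scaling, the empty spots subtracted, the quality score, the block, without 1.5 h, without 24 h and without the 7 mice, 1 with the first filter and without 18 h, and 0 to 6 over single mice. OA against serum summed over single times (6) gave 46 with the empty spots subtracted, 3 with median scaling and with the filter on dim clones, 1 with the quality score and the first filter, 0 with the block, and 3 to 766 (without serum mouse 4 at 4 h). The averaged comparison (0) gave 0 to 2, and the F test (0) gave 3 with the empty spots subtracted and 0 to 22 over single mice. The causes were not tested. No gene has another clone to try, and Ccr2 has too few spots with a quality score of 1 or without an overshining score for those fits.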
